A study of Homo sapiens with 6 samples.

Results

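Ubiquitin-conjugating (E2) enzymes were examined in PC-3 cells, an established human prostate cancer cell line derived from a bone metastasis. Members were all genes of the deposited gene-level table whose symbol starts with UBE2 and that carry a protein-coding RefSeq name, which gave 35 of the 18973 protein-coding symbols. A further 6 UBE2 symbols in the table had no such name and were left out. All cells carried the advanced Tet-On transactivator rtTA2, introduced by a retrovirus and selected with G418, and a second retrovirus marked by tdTomato. In the control group (tdTom) this second virus held tdTomato alone, driven by the PGK promoter. In the other group (TTP-tdTom) it also held TTP under the doxycycline-responsive Tight promoter. Both groups were sorted for tdTomato and were grown in 300 ng/ml doxycycline (Dox) for 4 hours, so that Dox and the transactivator were common to them. Each group comprised 3 samples, 6 in all, and the labels do not say whether the 3 came from separate transductions. The comparison asks which E2 transcripts differ in level between cells given the inducible TTP virus and cells given tdTomato alone.

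For each assembled locus the authors deposited 1 value per group, in FPKM, which scales fragment numbers by transcript length and by library size. No value of a single sample was analysed, so the spread between replicates is unknown and no test was run. The number of fragments behind each value is also unknown. A gene is described as lower or higher when its FPKM in the TTP-tdTom group was at least 1.5-fold below or above that in the tdTom group, which is a description of size and not a test. The log2 ratios are TTP-tdTom over tdTom throughout. FPKM is a relative measure, and in bulk RNA less transcript in every cell cannot be told apart from less transcript in some of them. ZFP36, which encodes TTP, was at 5.56 FPKM in tdTom cells and 5.54 in the cells labelled TTP-tdTom. Whether transgene reads were assigned to that row was not tested, and all directions below are between the groups as labelled. The epithelial genes KRT8 (20.9 and 19.1), KRT18 (98.2 and 91.5) and EPCAM (15.1 and 16.8) were present in tdTom and TTP-tdTom cells, whereas the epithelial cadherin CDH1 was at 0.119 and 0.390. The prostate kallikrein gene KLK2 was at 0.333 and 0.434 FPKM, and the leukocyte gene PTPRC at 0.243 and 0.566. Of other prostate genes, KLK3 was at 1.12 and 0.681, and TMPRSS2 at 1.78 and 2.53.

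Ubiquitin is activated by an E1 enzyme, passed to the catalytic cysteine of an E2 and transferred to a substrate with the help of an E3 ligase. The E2 largely sets which kind of chain is built, and so whether the substrate is degraded, moved or used as a signalling platform. A few E2s carry ubiquitin-like proteins such as NEDD8 or ISG15 instead, and the UEV proteins (UBE2V1 and UBE2V2) resemble E2s but lack the catalytic cysteine. TTP binds AU-rich elements in 3′ untranslated regions (3′UTRs) and promotes decay of the mRNA.

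Of the 35 E2 genes, 33 had a mean FPKM over the groups of at least 1. In the TTP-tdTom group 11 of them were lower by 1.5-fold or more: UBE2V2, UBE2W, UBE2H, UBE2D1, UBE2E1, UBE2N, UBE2B, UBE2T, UBE2S, UBE2J1 and UBE2C. This is 33.3% of the E2 genes, beside 22.9% of the 11605 protein-coding genes that passed the same filter. A single E2 gene, UBE2U, was higher, beside 1.74% of all genes, but it passed the filter only through the TTP-tdTom group and its rows differed in direction, so nothing is read from this count. At 2-fold the E2 share was 9.09% (3 genes, UBE2V2, UBE2W and UBE2H) and that of all genes 8.26%, so at this size the E2 genes stood near the background. The median log2 ratio of the 33 was -0.40, beside -0.24 over all genes, and 30 of the 33 (90.9%) were below 0, beside 80.8% of all genes. As all genes were shifted, each E2 was also read against that median, and 24 of the 33 lay below it. With log2 ratios centred on the median of all genes, 7 E2 genes were lower and 1 higher. The centred counts for all genes were 1537 lower and 445 higher, in place of 2652 and 202.

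**Figure D1:**
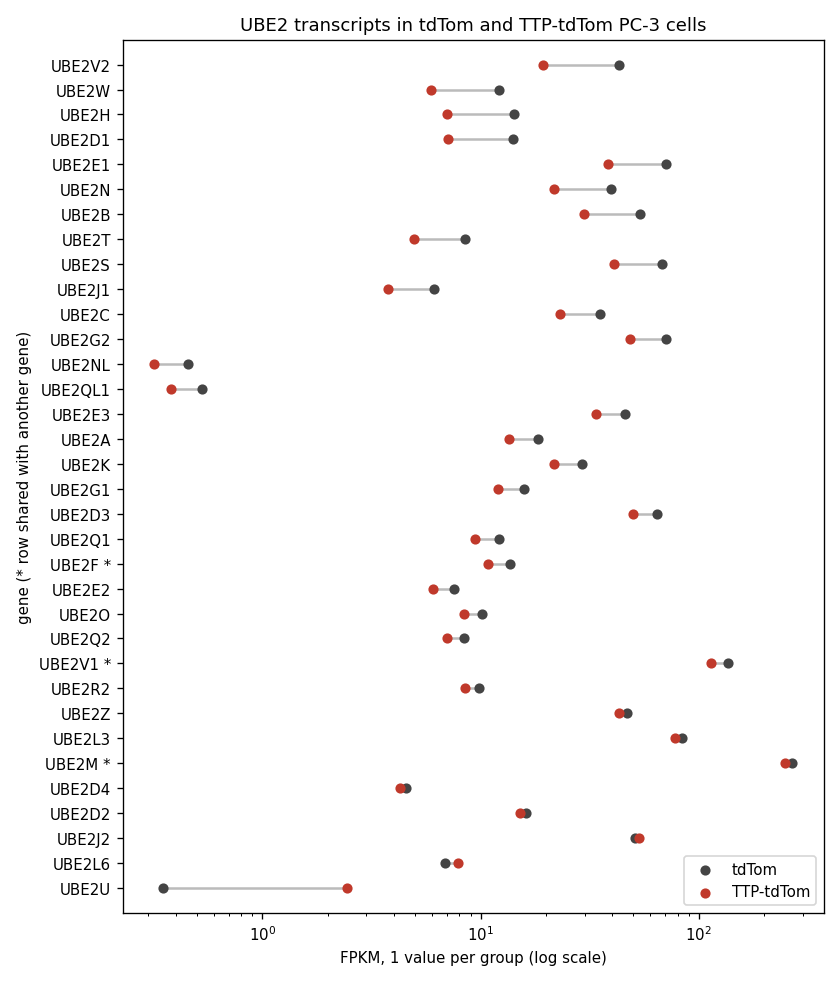
FPKM of 34 of the 35 E2 genes (log axis) in the tdTom group (dark points) and the TTP-tdTom group (red points), 1 authors' value per group with no error bar, in the order of the log2 ratio. The gap between the points is widest among the genes at the top and at UBE2U, and an asterisk marks the 3 expressed genes whose row also holds another gene.

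**Figure D2:**
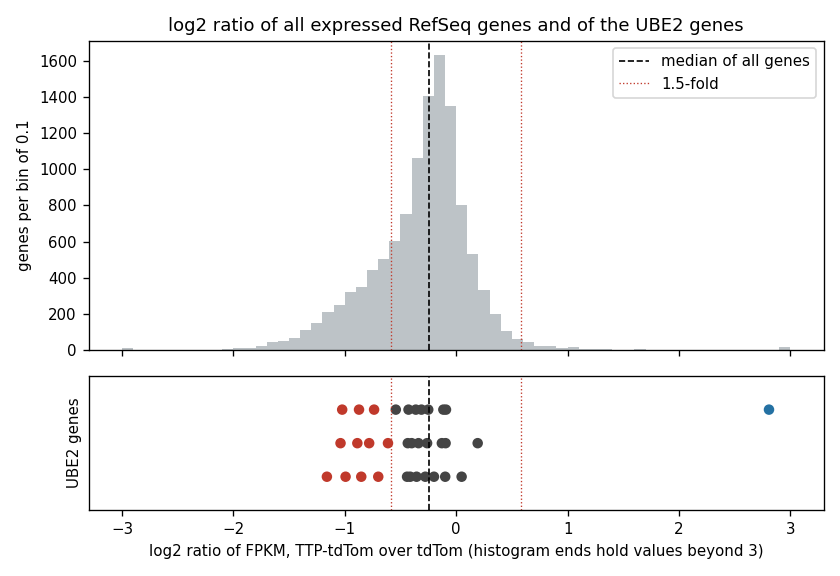
Histogram of the log2 ratio over all 11605 expressed protein-coding genes (upper panel) and the ratios of the 33 expressed E2 genes as points (lower panel, staggered for legibility). Red points are the 11 E2 genes lower by at least 1.5-fold, the blue point is UBE2U, and the dashed line is the median of all genes at -0.24.

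The E2 genes were well expressed. Their median FPKM in tdTom cells was 16.5, beside 9.60 for all genes, and in TTP-tdTom cells 13.5, beside 7.43. The 11 lower genes lay between UBE2J1 at 6.09 and UBE2E1 at 70.9 in tdTom cells, and expressed E2 genes that were not lower lay both below and above them. Of the 33, 3 shared their row with a neighbour, so that their value is not that of the E2 alone: UBE2M with CHMP2A, UBE2F with SCLY, and UBE2V1 with TMEM189. None of these 3 was lower by 1.5-fold, so the 11 lower genes all had rows of their own.

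The heptamer UAUUUAU is the core of the AU-rich elements that TTP binds, and 9 of the 33 expressed E2 genes held it in their longest annotated 3′UTR. The sites below show it in capitals, read 5′ to 3′ on the transcript with the bases on either side, in 2 lower genes (UBE2N and UBE2T) and in 3 that were not lower (UBE2G2, UBE2A and UBE2K, the last with a longer uridine-rich match). They are shown because the same 7 letters stood in genes on both sides of the 1.5-fold line. The lower genes UBE2W and UBE2V2 also held these letters, as did UBE2R2 and UBE2M, which were not lower. Their sites are not shown here, and UBE2W also held the longer match. Sequences come from GENCODE release 29 on GRCh38. Coordinates are those of the 29 bases shown. The UBE2N site lies at chr12:93409149-93409177 on the minus strand, and its heptamer starts at base 873 of a 3′UTR of 4349. The UBE2T site lies at chr1:202331707-202331735 on the minus strand, and its heptamer starts at base 111 of a 3′UTR of only 178. In the sites of UBE2G2 (chr21:44769118-44769146, minus), UBE2A (chrX:119584222-119584250, plus) and UBE2K (chr4:39780196-39780224, plus) the heptamers start at bases 2242, 978 and 1773 of their 3′UTRs.
UBE2N: acugaauggagUAUUUAUaaacuggcccu
UBE2T: uuuguguaguuUAUUUAUcuuguacauau
UBE2G2: uuauucauuugUAUUUAUuaaaugaaaaa
UBE2A: cuuuuuuuggaUAUUUAUacuuuuagaua
UBE2K: agauuuuucuuUAUUUAUuuuaaauaccu

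UBE2N and the UEV proteins form the heterodimers that build non-degradative signalling chains, with UBE2V2 acting mainly in DNA damage tolerance and UBE2V1 mainly in NF-kB signalling. UBE2N was at 39.8 FPKM in tdTom cells and 21.7 in TTP-tdTom cells, a log2 ratio of -0.87 with 54.6% remaining. Its assembled locus lies on chromosome 12 of GRCh37 from 93802088 to 93836026. UBE2V2 was at 43.1 and 19.3, a log2 ratio of -1.16, with 44.7% remaining. This was the lowest ratio of the 35 genes and stood at the 4.95 percentile of all expressed genes. The locus of UBE2V1, shared with TMEM189, was at 135.7 and 114.1, a log2 ratio of -0.25, close to the median of all genes. Thus the catalytic E2 and UBE2V2 were both lower, while the shared row of UBE2V1 was not.

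UBE2W attaches ubiquitin to the N terminus of proteins, UBE2H serves the CTLH ligase complex, and UBE2O is a large protein that acts as both E2 and E3. UBE2W was at 12.2 FPKM in tdTom cells and 5.92 in TTP-tdTom cells, a log2 ratio of -1.04. UBE2H was at 14.2 and 7.0, a log2 ratio of -1.02 with 49.2% remaining, and its locus lies on chromosome 7 of GRCh37 from 129470570 to 129592800. UBE2O was at 10.2 and 8.39, a log2 ratio of -0.28. UBE2W and UBE2H were therefore each at less than 50% of the tdTom level, while UBE2O was near the median of all genes.

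The UBE2D enzymes are the most promiscuous E2s and work with a very wide range of RING and HECT ligases. UBE2D1 was at 14.1 FPKM in tdTom cells and 7.09 in TTP-tdTom cells, a log2 ratio of -0.99 with 50.3% remaining, at chromosome 10 of GRCh37 from 60094637 to 60130707. UBE2D2 was at 16.2 and 15.2 (-0.09 on the log2 scale), and UBE2D4 at 4.57 and 4.28 (-0.09). UBE2D3, the most abundant of the 4, was at 64.5 and 50.2, a log2 ratio of -0.36. One gene of the class was thus lower and the other 3 were not, although their proteins, translated from GENCODE transcripts, were between 87.8% and 95.9% identical. Their coding sequences were between 77.4% and 83.7% identical, and how the authors' alignment assigned fragments from shared stretches was not tested.

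The UBE2E enzymes carry an N-terminal extension in front of a UBE2D-like core. UBE2E1 was the most abundant lower gene, at 70.9 FPKM in tdTom cells and 38.3 in TTP-tdTom cells, a log2 ratio of -0.89. Its locus spans 23847384 to 23933131 of chromosome 3 (GRCh37), and UBE2E2 spans 23244552 to 23648882 of the same chromosome. UBE2E2 was at 7.56 and 6.09, a log2 ratio of -0.31. UBE2E3 was at 45.8 and 33.7, a log2 ratio of -0.44. All 3 were below the median of all genes, and UBE2E1 alone was past 1.5-fold.

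UBE2A and UBE2B are the human counterparts of yeast Rad6, which modify PCNA and histone H2B, and UBE2T is the E2 of the Fanconi anaemia pathway. UBE2B was at 53.9 FPKM in tdTom cells and 29.9 in TTP-tdTom cells, a log2 ratio of -0.85, within a locus on chromosome 5 of GRCh37 from 133634115 to 133729662. UBE2A was at 18.3 and 13.5, a log2 ratio of -0.43, although the proteins were 95.4% identical. UBE2T was at 8.49 and 4.94, a log2 ratio of -0.78, at chromosome 1 of GRCh37 from 202300785 to 202311120. Both UBE2B and UBE2T were lower, but after centring on the median of all genes UBE2T no longer passed 1.5-fold, at -0.54.

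**Figure D3:**
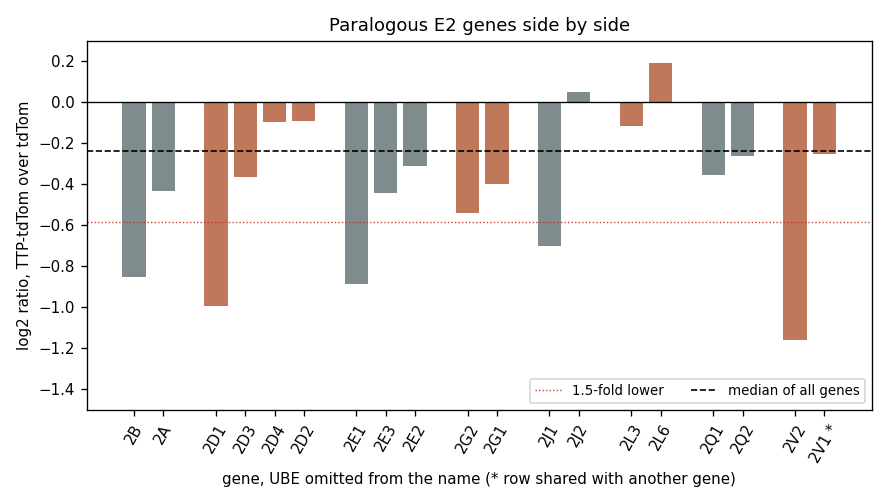
log2 ratio of the members of 8 families of paralogous E2 genes, 1 bar per gene from a baseline of 0 with colours alternating between families, with no error bar because the table holds 1 value per group. The widest spreads within a family are those of UBE2V (-1.16 and -0.25), UBE2D (-0.99 to -0.09) and UBE2J (-0.70 and 0.05). The asterisk marks UBE2V1, whose row also holds TMEM189, so that its value is not that of the E2 alone.

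UBE2C starts and UBE2S extends the chains that the anaphase-promoting complex (APC/C) builds on its substrates in mitosis. UBE2S was at 68.2 FPKM in tdTom cells and 40.9 in TTP-tdTom cells, a log2 ratio of -0.74, on chromosome 19 of GRCh37 from 55912650 to 55919325. UBE2C was at 35.4 and 23.1, a log2 ratio of -0.61, on chromosome 20 from 44440228 to 44447989. Of the 33 genes, UBE2C stood just inside the 1.5-fold line and UBE2G2, at -0.54, just outside it. After centring neither UBE2S (-0.50) nor UBE2C (-0.37) was past 1.5-fold. A second row of UBE2C was at 0.435 and 0.558 FPKM.

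UBE2J1 and UBE2J2 are anchored in the membrane of the endoplasmic reticulum, where with UBE2G2 they serve the degradation of misfolded proteins, and UBE2G1 extends chains on cullin-RING substrates. UBE2J1 was at 6.09 FPKM in tdTom cells and 3.75 in TTP-tdTom cells, a log2 ratio of -0.70. UBE2J2 was at 51.3 and 53.0, a log2 ratio of 0.05, so that of UBE2J1 was lower by 0.75 on the log2 scale. UBE2G2 was at 70.6 and 48.5 (-0.54), and UBE2G1 at 15.8 and 12.0 (-0.40). UBE2J1 was the weakest-expressed of the 11 lower genes and was no longer past 1.5-fold after centring (-0.46).

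UBE2K, UBE2R2 and UBE2L3 were each short of 1.5-fold. UBE2K, which can build degradative chains without an E3, was at 29.1 FPKM in tdTom cells and 21.6 in TTP-tdTom cells (-0.43 on the log2 scale). UBE2R2, a cullin-RING E2, was at 9.79 and 8.53 (-0.20). UBE2L3, the partner of HECT and RBR ligases such as parkin, was at 84.1 and 77.7 (-0.12) and had the highest tdTom FPKM of the genes with a row of their own.

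The 4 genes described here for ubiquitin-like proteins or for the alternative E1, UBE2M, UBE2F, UBE2L6 and UBE2Z, were all short of 1.5-fold. The NEDD8 E2s both lay in shared rows, with the row of UBE2M at 267.4 FPKM in tdTom cells and 249.7 in TTP-tdTom cells (-0.10 on the log2 scale) and that of UBE2F at 13.7 and 10.8 (-0.34). UBE2L6, the ISG15 E2, was at 6.88 and 7.86 (0.19). UBE2Z, which is charged by UBA6 with ubiquitin or FAT10, was at 47.0 and 43.0 (-0.13). The log2 ratios of these genes ranged from -0.34 to 0.19, and that of UBE2F alone lay below the median of all genes.

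UBE2Q1 and UBE2Q2 share an extended N terminus in front of the E2 fold. UBE2Q1 was at 12.1 FPKM in tdTom cells and 9.45 in TTP-tdTom cells (-0.36), and UBE2Q2 at 8.39 and 7.0 (-0.26). UBE2QL1 (0.527 and 0.383) and the UBE2N-like gene UBE2NL (0.458 and 0.320) did not reach a mean FPKM of 1. UBE2U, on chromosome 1 of GRCh37 from 64669490 to 64710027, was at 0.349 and 2.44, which is 7.0-fold higher, but it passed the filter only through the TTP-tdTom group. Its log2 ratio of 2.81 was 1.35 with a pseudocount of 1 and 1.71 with its rows summed. A second row of UBE2U at the same coordinates went the other way, at 0.206 and 0.0211, and the last of its 3 rows was at 0.400 and 0.652, so its direction depended on the row. UBE2D4, the only other gene with several rows beside UBE2C, had 3 further rows between 0.154 and 1.23 FPKM, and its log2 ratio of -0.09 was -0.21 with its rows summed.

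Among paralogues the gene with the lower ratio was compared with its partner for transcript GC content and for the heptamer. In 10 of 15 pairs the gene with the lower ratio also had the lower GC content, and in 5 the higher. The pairs are not independent, since the UBE2D genes alone gave 6 of the 15, and some pairs were nearly equal in ratio (UBE2D2 and UBE2D4 both at -0.09). In 12 of the 15 pairs neither gene held a heptamer. UBE2D1, at 34.0% GC, differed from UBE2D2 at 46.6% and UBE2D4 at 47.8%, and UBE2J1 (40.1%) from UBE2J2 (59.7%). UBE2V2 (34.3%) differed from UBE2V1 (44.5%), whose log2 ratio is that of the row shared with TMEM189. UBE2E1 (42.8%) and UBE2E2 (41.8%) were close in GC content although their log2 ratios differed by 0.58.

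**Figure D4:**
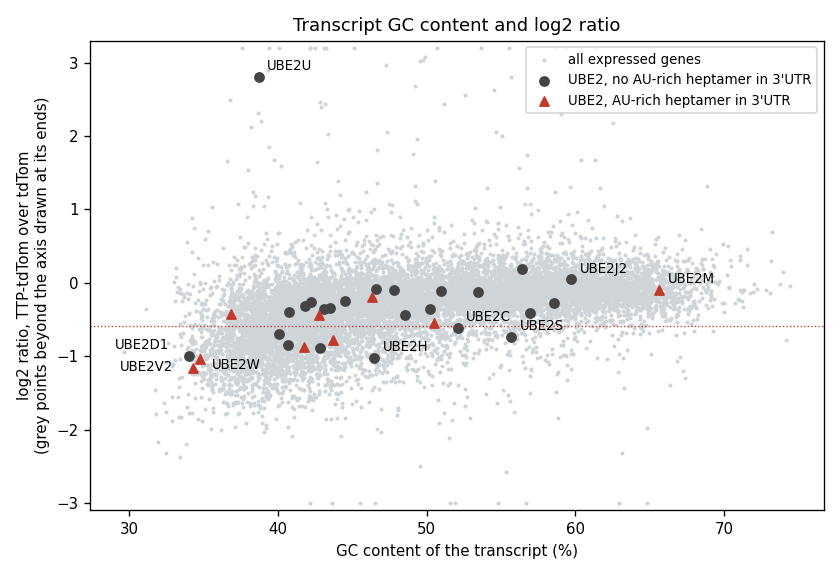
GC content of the principal GENCODE transcript (percent) against the log2 ratio, with all expressed protein-coding genes in grey the E2 genes without the AU-rich heptamer as dark circles and those with it as red triangles. UBE2V2, UBE2W and UBE2D1 lie at the lower left, UBE2U lies at the top at 38.7% GC, and UBE2C and UBE2S are past 1.5-fold (dotted line) at a GC content above 50%.

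GC content moved with the ratio in E2 genes as it did in all genes. Without UBE2U, the Pearson correlation over 32 E2 genes was 0.60 and the Spearman correlation 0.58, and over 11487 genes they were 0.39 and 0.48. With UBE2U, over 33 genes, the Pearson value was 0.15 and the Spearman value 0.48, so that the former turned on that gene. These points share the same libraries and are given as a description. All genes were split by GC content into 5 bins of equal size. In the lowest bin 56.0% of all genes and 5 of 8 E2 genes were lower by 1.5-fold. In the next bins the shares were 31.2% of all genes and 3 of 9 E2 genes, then 16.7% and 1 of 8 (UBE2H). They were 6.84% and 2 of 5 (UBE2C and UBE2S) in the bin after that, and 3.61% and 0 of 3 in the highest bin. The part that GC content, or library steps that depend on it, played in the ratios was not tested.

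The heptamer UAUUUAU, sought on the sense strand only, stood in the 3′UTR of 27.3% of the expressed E2 genes and 36.2% of 11440 expressed genes. Among lower genes it stood in 4 of 11 E2 genes (36.4%), namely UBE2W, UBE2V2, UBE2N and UBE2T, beside 62.1% of all lower genes. Among the 21 E2 genes between the 1.5-fold lines it stood in 5 (23.8%), namely UBE2K, UBE2A, UBE2G2, UBE2R2 and UBE2M. Thus 7 of the 11 lower E2 genes (UBE2H, UBE2D1, UBE2E1, UBE2B, UBE2S, UBE2J1 and UBE2C) did not hold these letters in the longest 3′UTR. UBE2W stood apart, with 12 copies in 7882 bases, 9 of them within the nonamer UUAUUUAUU. Over the 33 E2 genes the Spearman correlation of the log2 ratio was -0.33 with the number of heptamers and -0.46 with that of pentamers (AUUUA). Without UBE2U, over 32 E2 genes, these correlations were -0.32 and -0.42, and over 11487 genes they were -0.33 and -0.44. Single genes departed from this, as UBE2K held 3 heptamers in 4358 bases with a log2 ratio of -0.43 and UBE2H held 0 in 4205 bases with one of -1.02. The median log2 ratio was -0.54 for the 9 E2 genes with the heptamer and -0.35 for the 24 without, which include UBE2U. Over all genes these medians were -0.45 and -0.17. The shorter pentamer AUUUA, which lies inside the heptamer, stood in 30 of the 33 E2 genes (90.9%), beside 74.3% of all genes. It stood in 10 of the 11 lower E2 genes (90.9%), beside 94.8% of all lower genes. Between the 1.5-fold lines it stood in 20 of the 21 E2 genes (95.2%), beside 68.2% of all genes that were not lower. A match to letters is not a binding site, and its absence says nothing of TTP.

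The other parts of the ubiquitin pathway were read from lists of symbols. Of the E1 enzymes 3 of 9 expressed genes were lower and the median log2 ratio was -0.43, beside 22.9% lower and a median of -0.24 over all genes. One of the 3, UBA2, lies in a row shared with WTIP. UBA1, the main ubiquitin E1, was at 142.4 FPKM in tdTom cells and 130.0 in TTP-tdTom cells (-0.13). UBA6, the alternative E1 that charges UBE2Z, was at 26.8 and 12.5, a log2 ratio of -1.10. Among the 9 expressed genes of the list UBA6 was the lowest and MOCS3, which activates the ubiquitin-like URM1, the highest at 0.13. Of 8 E2s or E2-like genes with other names 4 were lower, with a median of -0.56, from UEVLD at -1.20 to the cullin-RING E2 gene CDC34 at -0.01. These 2 lists were the only ones of the 7 with a lower median than the 33 E2 genes, at -0.40. For the E1 list this depended on the setting, as the E2 median without shared rows and UBE2U was also -0.43.

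Among ligases, the APC/C list that serves UBE2C and UBE2S had 3 of 16 lower and a median of -0.28, from ANAPC10 at -0.83 to ANAPC2 at 0.21. The cullin-RING list had 4 of 16 lower and a median of -0.34, from CUL2 at -1.14 to RNF7 at -0.01. The list of RING ligases for UBE2N, UBE2A and UBE2B, with the Fanconi genes, had 1 of 14 lower (HLTF at -1.0) and a median of -0.30, and its highest ratio was that of RNF40, in a row shared with PHKG2, at 0.05. Of the endoplasmic reticulum list 0 of 10 were lower, from SEL1L at -0.54 to RNF139 at 0.07, with a median of -0.18. The list of SUMO proteins, ligases and proteases had 4 of 13 lower and a median of -0.37, from SENP7 at -0.98 to PIAS4 at 0.05. The shares of lower genes were thus 18.8%, 25%, 7.14%, 0% and 30.8%, in the order given, beside 22.9% of all genes. No gene of these 5 lists with a mean FPKM of at least 1 was higher by 1.5-fold. After centring on the median of all genes the counts of lower genes were 1, 3, 1, 0 and 2 in the same order, and 2 and 2 for the E1 list and the E2s with other names, beside 13.2% of all genes.

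**Figure D5:**
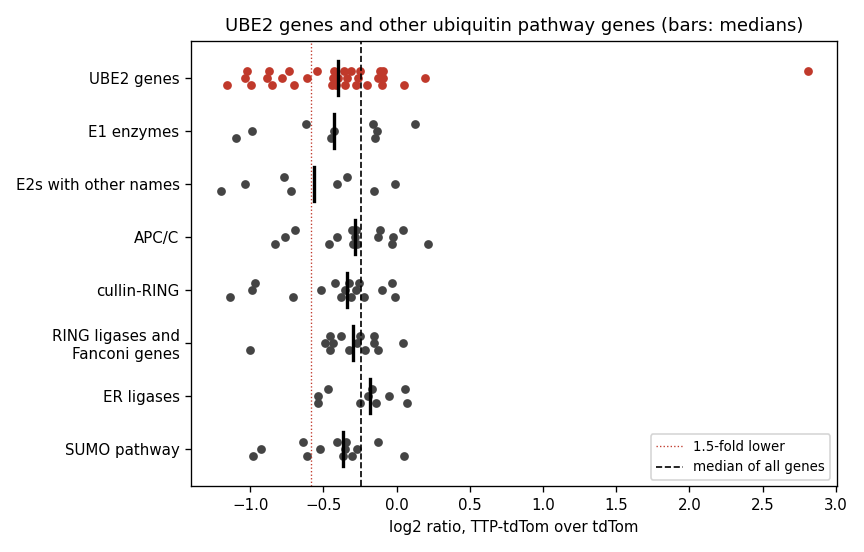
log2 ratio of the 33 expressed E2 genes (red) and of the expressed genes of 7 other lists of the ubiquitin pathway (grey), with list medians as vertical bars. The medians of the E1 list (-0.43) and of the E2s with other names (-0.56) lie to the left of the E2 median of -0.40, and that of the endoplasmic reticulum list (-0.18) to the right of the median of all genes (dashed).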

How the data were processed

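The authors sequenced RNA of 3 tdTom and 3 TTP-tdTom samples as strand-specific, paired-end libraries. Per the submitters' processing notes and the methods, reads were aligned with TopHat2 2.0.13 to Hs37D5 (GRCh37 with decoys), then assembled and compared with Cufflinks 2.2.1. The deposited table holds 1 FPKM value per group at each of 406165 assembled loci, and 30218 loci carry a gene symbol. Its columns of fold changes, test statistics, p-values and q-values hold the authors' own comparison and were not used.

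Rows were split by symbol. For each symbol the row with the most RefSeq names was taken, then the highest summed FPKM. A mean FPKM of at least 1 was required, and ratios were taken without a pseudocount. The study design allowed for values per sample, so replicate fits were planned but could not be run. The methods state an intended number of read pairs per sample, but the depth that each library reached is unknown, as FPKM holds no counts. Locus starts are counted from 1. Transcripts came from GENCODE release 29 by symbol or NCBI synonym, matching 99.0% of expressed symbols and 34 of the 35 E2 genes, and proteins were translated from them. Every expressed E2 gene is named except 1 that is not reported here but is included in the counts and medians. Of each other list the lowest and highest ratio are named, with UBA1, UBA6 and CDC34. Members and lists were chosen with earlier results of these data known. Functions were tested on simulated data. Alternatives were the fold, filter, pseudocount, centring, rescaling, choice of row and motif. Python 3.11.15, numpy 2.4.6, pandas 2.3.3, scipy 1.17.1, Biopython 1.88 and matplotlib 3.10.9 were used.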

Additional observations from a re-analysis of the deposited data

How the results depend on the processing

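No paired analysis was possible because the table holds 1 value per group, and fits that leave out a replicate were not run for the same reason. The number of E2 genes lower by 1.5-fold, 11, was 3 at 2-fold and 7 once log2 ratios were centred on the all-gene median, which left out UBE2C, UBE2J1, UBE2S and UBE2T. After centring 13.2% of all genes were lower. It was 8 of 23 at a mean FPKM of at least 10 (24.0% of all genes), 11 of 35 without a minimum (20.3%), 10 of 33 with a pseudocount of 1 (18.8%), and 10 or 11 otherwise. No setting added a gene to the 11. The median log2 ratio, -0.40, was -0.41 without a minimum FPKM, -0.43 at a mean FPKM of at least 10, -0.37 with a pseudocount of 1 and -0.16 after centring. With settings chosen after seeing the data it was -0.43 without shared rows and UBE2U and -0.35 after rescaling to the same FPKM sum over named rows, where 10 genes were lower, beside 20.4% of all genes. Of the E2 genes 9 held the heptamer, 2 the nonamer and, chosen after seeing the data, 30 the pentamer. The order of genes with close ratios cannot be read, as no spread between replicates is known.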
